A study of Mus musculus with 16 samples.

Results

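The Slc25 genes encode the mitochondrial carriers. They were taken as every protein-coding gene of the deposited table whose mouse symbol begins with Slc25a and a digit, which gave 47 of 33289 gene IDs. Of these, 40 passed the filter on low values (at least 0.5 RPKM, a log2 RPKM of -1, in at least 3 libraries), as did 17349 genes in all. The libraries were made from total RNA of one brain hemisphere of C57BL/6J mice, aged 3 to 4 months and perfused with PBS, collected 8 hours after injection. The 4 groups of 4 libraries each were mice labelled Lcn2-/- given lipopolysaccharide (LPS, a bacterial outer membrane component that triggers innate immunity), wild type mice given LPS, mice labelled Lcn2-/- given saline and wild type mice given saline. Lcn2 encodes lipocalin-2, a secreted protein of the acute inflammatory response, and the study asks about its part in the inflamed brain. The dose and route of LPS, the sex of the mice and the kind of Lcn2 allele are not stated in the labels.

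Mitochondrial carriers are small proteins of the inner mitochondrial membrane, with a few members in the outer membrane or in peroxisomes. They exchange nucleotides, phosphate, carboxylates, amino acids, cofactors and metal ions between cytosol and matrix, and so connect oxidative phosphorylation with metabolism in the rest of the cell. In brain, the ADP/ATP carriers export the ATP that neurons and glia use, and the aspartate/glutamate and glutamate carriers link respiration to neurotransmitter metabolism. In tissue made of many cell types, fewer cells of a type and less RNA per cell cannot be told apart.

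The targeted transcript was checked first. Lcn2 stood at 40.2, 34.1, 38.3 and 37.2 RPKM in libraries labelled Lcn2-/- after LPS, and at 71.5, 67.8, 66.7 and 82.7 RPKM in wild type libraries after LPS. After saline, no library exceeded 0.351 RPKM. Lcn2 RNA was thus present after LPS under both labels, at a lower level under the Lcn2-/- label, and the group is called labelled Lcn2-/- throughout. Saline replicate 4 labelled Lcn2-/- stood apart from the other 3 libraries of its group; its title is the one of the 16 that ends in a letter, and the labels do not say what the letter means or whether the library is a repeat. Its median absolute deviation from them over the 40 tested members was 0.17 on the log2 scale, against 0.031 to 0.074 in the other 15 libraries measured the same way. Results of members that rest on this library are therefore given with and without it. Calls of genes outside the 40 members are given with this library only, apart from shares over all genes. Adjusted p-values without it come from a fit of the other 15 libraries. Neuronal, astrocyte, oligodendrocyte and microglial markers, 10 each, all passed the filter, which is what the labelled tissue calls for. All differences were tested with limma on log2 RPKM and called at an adjusted p under 0.05 over all 17349 genes, and SE is the standard error of the log2 difference.

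Sequences upstream of 3 members are given for reference, and whether they bear on the LPS effects was not tested. Slc25a34 and Slc25a13 had the largest LPS effects in both genotypes, and Slc25a29 and Slc25a47 begin head to head on chromosome 12, 162 bp apart in GENCODE vM21. The windows are RefSeq sequences of build GRCm38.p6, each 300 bases long, from 250 bases before to 50 bases after the start of the gene, written 5′ to 3′ on the minus strand. They lie at chr4:141623785-141624084 for Slc25a34, at chr6:6217124-6217423 for Slc25a13 and at chr12:108835827-108836126 for Slc25a29. Capitals mark an E-box (CACGTG) in the Slc25a13 window and, in the Slc25a29 window, the 162 bases between the GENCODE starts of Slc25a29 and Slc25a47.
Slc25a34: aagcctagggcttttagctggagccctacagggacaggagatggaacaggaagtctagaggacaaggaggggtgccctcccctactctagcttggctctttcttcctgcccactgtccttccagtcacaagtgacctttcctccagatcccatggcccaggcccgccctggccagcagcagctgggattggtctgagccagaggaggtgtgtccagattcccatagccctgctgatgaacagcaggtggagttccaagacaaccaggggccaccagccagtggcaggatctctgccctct
Slc25a13: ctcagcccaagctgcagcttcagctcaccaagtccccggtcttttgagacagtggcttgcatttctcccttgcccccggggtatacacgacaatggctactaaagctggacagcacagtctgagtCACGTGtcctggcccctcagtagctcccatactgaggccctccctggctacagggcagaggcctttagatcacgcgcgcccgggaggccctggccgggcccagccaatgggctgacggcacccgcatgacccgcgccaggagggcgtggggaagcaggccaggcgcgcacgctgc
Slc25a29: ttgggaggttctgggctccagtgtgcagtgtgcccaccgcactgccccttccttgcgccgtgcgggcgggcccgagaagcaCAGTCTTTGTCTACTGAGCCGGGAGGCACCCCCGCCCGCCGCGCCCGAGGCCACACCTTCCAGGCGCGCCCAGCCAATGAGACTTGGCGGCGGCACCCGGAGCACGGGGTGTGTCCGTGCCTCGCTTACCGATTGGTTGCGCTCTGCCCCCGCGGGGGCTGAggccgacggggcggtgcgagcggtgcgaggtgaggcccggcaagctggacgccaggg

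Of the 47 members, 36 were matched by symbol to 46 such windows, which were searched on both strands for 9 motifs. The E-box CACGTG was found in 8 of 46 windows (17.4%), against 7.15% of 32851 windows of all genes. The windows with it belonged to Slc25a1, Slc25a13, Slc25a14, Slc25a15, Slc25a31, Slc25a33 and Slc25a36. The overlapping windows of Slc25a14 hold the same E-box site, so that site is counted in each of them. The GABPA motif CCGGAAG was in 7 windows (15.2%, against 8.86% of all windows), C/EBP TTGCNNAA in 3 (10.8% of all), STAT TTCNNNGAA in 2 (8.3% of all), NRF1 in 2 (4.6% of all) and CRE TGACGTCA in 2 (1.79% of all). The consensus motifs of the glucocorticoid receptor and NF-kB and the ERR motif TCAAGGTCA were in 0 of 46 windows, and in 0.475%, 0.411% and 0.423% of all windows. The window of Slc25a34 held none of the 9 motifs, which says only that these letters are not in these 300 bases.

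The family spans a wide range of levels in brain. In wild type saline libraries the median of the 40 tested members was 7.41 RPKM, against 4.39 RPKM over all tested genes, and 27 of 40 members lay above that median. The ADP/ATP carrier Slc25a4 was the highest, followed by the phosphate carrier Slc25a3 and a second ADP/ATP carrier, Slc25a5. Slc25a4 stood at 264, 266, 259.95 and 273 RPKM in libraries labelled Lcn2-/- after LPS and at 264, 271, 259.95 and 262 RPKM in wild type after LPS. After saline it stood at 271, 271, 266 and 203 RPKM in libraries labelled Lcn2-/- and at 266, 259.95, 262 and 259.95 RPKM in wild type. All libraries lay within a narrow band except saline replicate 4 labelled Lcn2-/-, which was the lowest. Slc25a4 made up 33.1 to 34.2% of the summed RPKM of the 47 members in libraries labelled Lcn2-/- after LPS, 32.9 to 33.7% in wild type after LPS, 28.9 to 34.0% in libraries labelled Lcn2-/- after saline and 32.6 to 33.4% in wild type after saline. The summed level itself was 782 to 803 RPKM in libraries labelled Lcn2-/- after LPS, 790 to 802 RPKM in wild type after LPS, 702 to 802 RPKM in libraries labelled Lcn2-/- after saline and 791 to 797 RPKM in wild type after saline. At the low end, 7 members did not pass the filter and were not tested: Slc25a2, Slc25a21, Slc25a31 (the germ cell ADP/ATP carrier), Slc25a41, Slc25a43, Slc25a48 and Slc25a54. The highest value of any of them in any library was 0.679 RPKM.

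**Figure D1:**
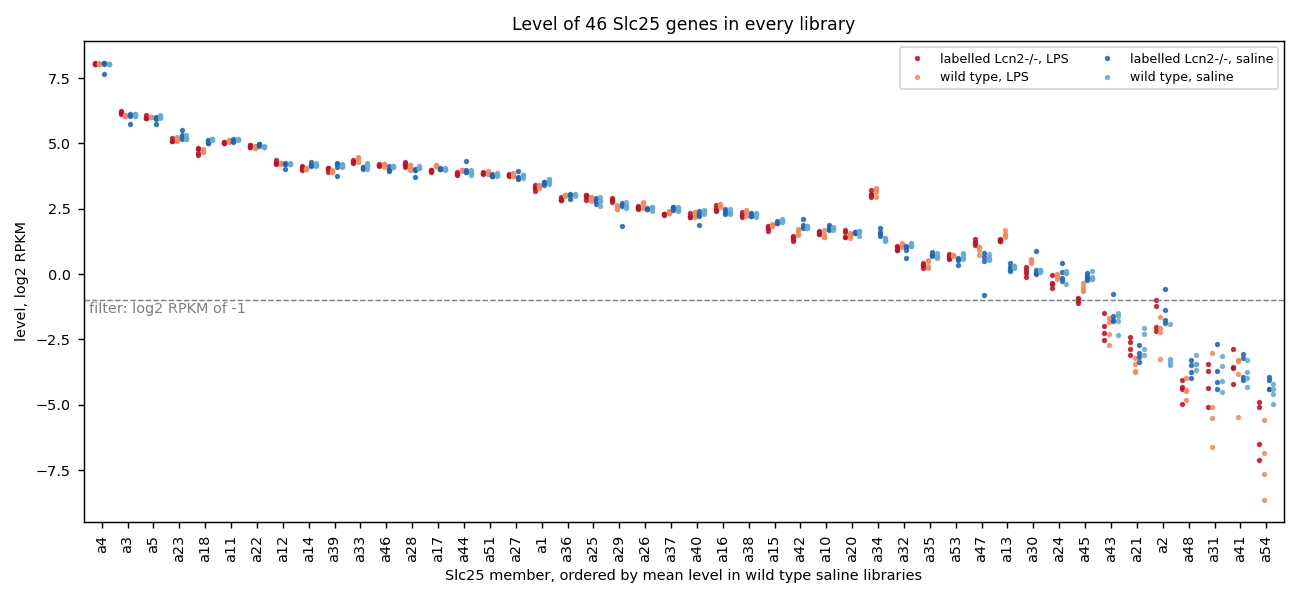
Level of 46 of the 47 Slc25 genes (log2 RPKM, y axis) in all 16 libraries, with genes ordered along the x axis by mean level in wild type saline libraries and 1 point per library, coloured by group. Slc25a4 is the highest and 7 genes lie below the dashed filter line in all but single libraries; Slc25a34 and Slc25a13 are the genes whose LPS libraries stand clear above their saline libraries.

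LPS changed many carriers by small amounts and a few by large ones. After LPS, 9 of 40 members were higher and 13 lower in libraries labelled Lcn2-/-, while 20.7% of all tested genes were called higher and 27.7% lower. The wild type counts were 6 of 40 members higher and 9 lower, while 11.4% of all genes were called higher and 13.9% lower. In either direction that is 55% of the members against 48.3% of all genes in libraries labelled Lcn2-/-, and 37.5% against 25.3% in wild type. The LPS and saline libraries did not overlap for 45% of the members and 42.4% of all genes in libraries labelled Lcn2-/-. In wild type they did not overlap for 42.5% of the members and 32.4% of all genes. The median difference of the members was -0.027 in libraries labelled Lcn2-/-, against -0.028 over all genes, and -0.018 in wild type, against -0.025 over all genes. In both comparisons, only Slc25a34 and Slc25a13 were called and at least 2-fold changed, that is 2 of 40 members, where 6.01% of all genes passed both limits in libraries labelled Lcn2-/- and 3.59% in wild type. The 11 members called under both genotype labels had the same direction in each, with 3 higher (Slc25a34, Slc25a13 and Slc25a33) and 8 lower (Slc25a1, Slc25a10, Slc25a14, Slc25a15, Slc25a18, Slc25a35, Slc25a37 and Slc25a45). The LPS libraries of each comparison are set against their own saline libraries, so these calls share no library between the genotypes, although all 16 share 1 estimate of the spread. Another 11 were called only in libraries labelled Lcn2-/- and 4 only in wild type, which does not by itself show that the genotypes differed.

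Slc25a34, a carrier whose substrate is not assigned here (chr4:141618824-141623821, minus strand, GENCODE vM21 on GRCm38), showed the largest change of the family. In libraries labelled Lcn2-/- it stood at 8.17, 7.84, 8.29 and 9.37 RPKM after LPS, against 3.39, 3.07, 2.93 and 2.78 RPKM after saline. In wild type it stood at 8.92, 9.71, 9.36 and 7.73 RPKM after LPS, against 2.62, 2.59, 2.45 and 2.44 RPKM after saline. Every LPS library exceeded every saline library more than 2-fold. The change was 2.77-fold in libraries labelled Lcn2-/- (1.47 ± 0.076 SE, adjusted p = 3.6e-10) and 3.52-fold in wild type (1.82 ± 0.076 SE, adjusted p = 5.9e-11). Its share of the family's summed RPKM had a median of 1.05% in libraries labelled Lcn2-/- after LPS and 1.15% in wild type after LPS, against 0.389% in saline libraries labelled Lcn2-/- and 0.317% in wild type saline libraries.

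Among the carriers of aspartate, glutamate and malate, 1 rose, 1 fell and 3 were not called in either genotype. Slc25a13 encodes citrin, the calcium-regulated aspartate/glutamate carrier best known from liver (chr6:6041218-6217173, minus strand). It stood at 2.41, 2.5, 2.42 and 2.57 RPKM after LPS, against 1.34, 1.2, 1.09 and 1.13 RPKM after saline, in libraries labelled Lcn2-/-. In wild type it stood at 2.65, 3.2, 2.82 and 2.91 RPKM after LPS, against 1.19, 1.21, 1.25 and 1.24 RPKM after saline. The groups did not overlap, and the change was 2.09-fold in libraries labelled Lcn2-/- (1.06 ± 0.072 SE, adjusted p = 9.1e-09) and 2.37-fold in wild type (1.24 ± 0.072 SE, adjusted p = 2.6e-09). Its close relative Slc25a12, called aralar, the main aspartate/glutamate carrier of neurons, differed by 0.096 ± 0.041 SE in libraries labelled Lcn2-/- (adjusted p = 0.065, or 0.050 and 0.18 without saline replicate 4, the lowest library) and 0.026 ± 0.041 SE in wild type (adjusted p = 0.71), and was not called; in libraries labelled Lcn2-/- it was called higher without saline replicate 2 (adjusted p = 0.040), without LPS replicate 1 (adjusted p = 0.045) and with GC content and length trends removed (0.17, adjusted p = 0.023).

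Slc25a18, a glutamate carrier that in rodent brain is found mainly in astrocytes (chr6:120773578-120794336, plus strand), went the other way. It stood at 23.6, 28.4, 27.9 and 25.1 RPKM after LPS, against 34.5, 35, 32.6 and 32.2 RPKM after saline, in libraries labelled Lcn2-/-. In wild type, Slc25a18 stood at 25.6, 26.5, 26.5 and 27.4 RPKM after LPS, against 35.3, 35.9, 36 and 36.1 RPKM after saline. The LPS libraries were all lower than the saline libraries under both labels. It fell by 0.36 (SE 0.050, adjusted p = 2.7e-05) in libraries labelled Lcn2-/- and by 0.43 (SE 0.050, adjusted p = 6.3e-06) in wild type. An exon of Slc25a18 overlaps one of Atp6v1e1 on the opposite strand by 32 bp, and whether reads were counted by strand is not stated in the labels, so part of the value could be reads of that abundant gene. The summed level of 10 astrocyte markers was higher after LPS: 630 to 654 RPKM in libraries labelled Lcn2-/- and 614 to 646 RPKM in wild type, against 514 to 541 RPKM in saline libraries labelled Lcn2-/- and 529 to 546 RPKM in wild type saline libraries. Of these markers, 5 of 10 were called higher in libraries labelled Lcn2-/- and 4 of 10 in wild type. Of all tested genes, 20.7% and 11.4% were called higher. None of the 10 markers was called lower in either, and all 10 passed the filter. Their part in the result was not tested. Slc25a22, the second glutamate carrier, and the oxoglutarate/malate carrier Slc25a11 were not called, with differences of -0.044 ± 0.027 SE and -0.071 ± 0.029 SE in libraries labelled Lcn2-/- and -0.029 ± 0.027 SE and -0.049 ± 0.029 SE in wild type. Without saline replicate 4, Slc25a11 was called lower in libraries labelled Lcn2-/- (-0.092, adjusted p = 0.0074), as it was with GC content and length trends removed (-0.16, adjusted p = 1.7e-04) and with array weights (-0.092, adjusted p = 0.0038).

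**Figure D2:**
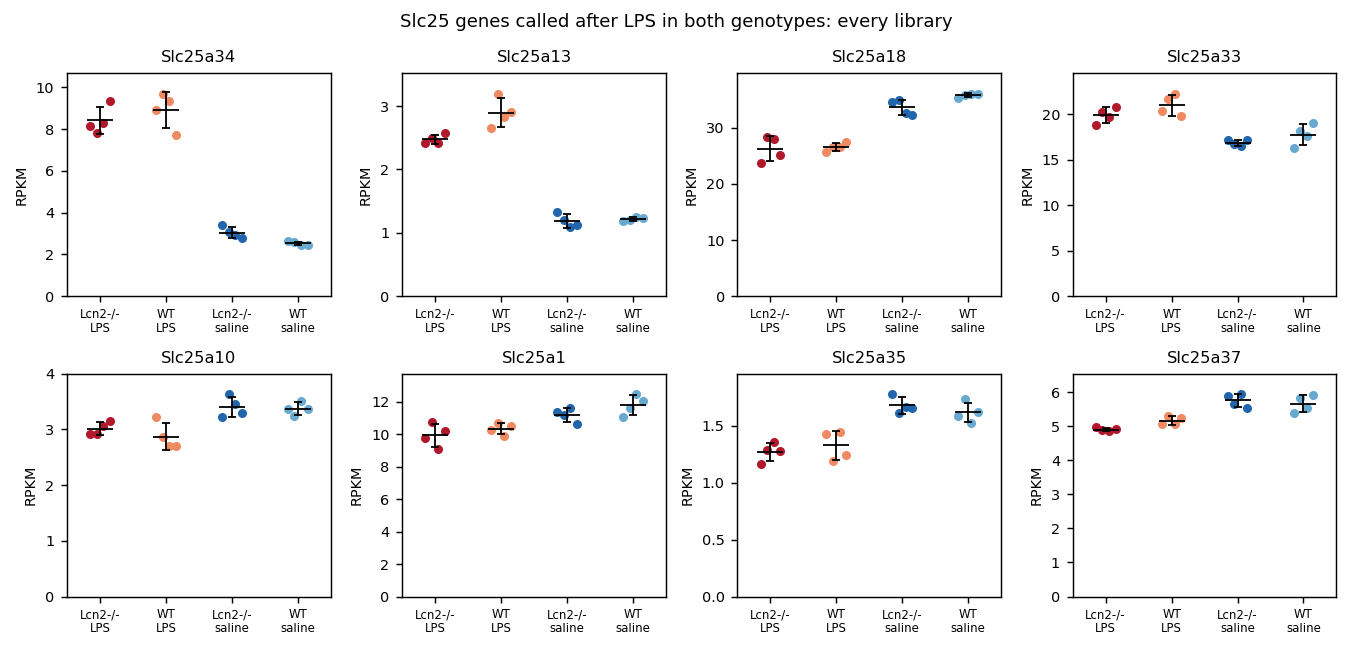
RPKM (y axis, from 0) in every library of 8 Slc25 genes called after LPS under both genotype labels; each point is 1 library, and the bar and whiskers are the group mean and SD (n = 4). The LPS libraries of Slc25a34, Slc25a13 and Slc25a33 lie above the saline libraries of the same label, and those of Slc25a18, Slc25a10, Slc25a35 and Slc25a37 below; for Slc25a1 the groups overlap in libraries labelled Lcn2-/-.

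The citrate carrier Slc25a1 and the dicarboxylate carrier Slc25a10 both fell modestly after LPS. Slc25a1, the citrate carrier that exports acetyl units for lipid synthesis, stood at 9.76, 10.8, 9.08 and 10.2 RPKM after LPS, against 11.4, 11.2, 11.6 and 10.6 RPKM after saline, in libraries labelled Lcn2-/-. In wild type it stood at 10.3, 10.7, 9.91 and 10.5 RPKM after LPS, against 11.1, 11.6, 12.5 and 12 RPKM after saline. The groups overlapped slightly in libraries labelled Lcn2-/- and not in wild type, with differences of -0.17 ± 0.052 SE in libraries labelled Lcn2-/- (adjusted p = 0.011) and -0.19 ± 0.052 SE in wild type (adjusted p = 0.013). Slc25a10, the dicarboxylate carrier for malate and succinate, stood at 2.91, 2.92, 3.06 and 3.15 RPKM after LPS, against 3.22, 3.64, 3.46 and 3.29 RPKM after saline, in libraries labelled Lcn2-/-. Its wild type values were 3.22, 2.87, 2.7 and 2.7 RPKM after LPS, against 3.37, 3.24, 3.52 and 3.37 RPKM after saline. All LPS libraries were lower than the saline libraries of their label, although by less than 0.1 RPKM at the nearest pair, and the differences were -0.18 ± 0.061 SE in libraries labelled Lcn2-/- (adjusted p = 0.028) and -0.23 ± 0.061 SE in wild type (adjusted p = 0.0099). The call of Slc25a10 in libraries labelled Lcn2-/- was lost when saline replicate 2 or 3 or LPS replicate 1 or 2 of that label was left out, and that of Slc25a1 in wild type when wild type saline replicate 3 was.

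Among the ATP and phosphate carriers, the abundant members had small differences. Slc25a3, which brings phosphate into the matrix, stood at 70.5, 75.7, 72.8 and 71.7 RPKM after LPS, against 66.6, 70.01, 68.6 and 53.1 RPKM after saline, in libraries labelled Lcn2-/-. In wild type, Slc25a3 stood at 68.7, 67.1, 66.1 and 67.3 RPKM after LPS, against 66.3, 67.2, 70.2 and 69.1 RPKM after saline. The LPS libraries labelled Lcn2-/- all lay above their saline libraries, and saline replicate 4 was far below the rest; the wild type groups overlapped. The difference of 0.18 ± 0.064 SE in libraries labelled Lcn2-/- (adjusted p = 0.030) became 0.087 without saline replicate 4 (adjusted p = 0.021), and the call was lost without LPS replicate 2 or 3, with GC content and length trends removed and with only the compared groups in the fit. Slc25a4 and Slc25a5 differed by 0.083 ± 0.068 SE and 0.082 ± 0.045 SE in libraries labelled Lcn2-/- and by 0.012 ± 0.068 SE and -0.0072 ± 0.045 SE in wild type, and neither was called. Without saline replicate 4 the differences in libraries labelled Lcn2-/- were -0.019 for Slc25a4, the opposite sign, and 0.025 for Slc25a5. A processed copy of Slc25a5 (Slc25a5-ps) is listed separately and stayed under 0.1 RPKM in every library. Of the calcium-regulated ATP-Mg/phosphate carriers, Slc25a23 stood at 37, 34.1, 33.8 and 34.5 RPKM after LPS, against 35.8, 40.3, 37.6 and 46.1 RPKM after saline, in libraries labelled Lcn2-/-. In wild type, Slc25a23 stood at 37.8, 34.5, 35.5 and 37.3 RPKM after LPS, against 40.4, 36.4, 35.9 and 36.6 RPKM after saline. The groups overlapped under both labels. Its difference of -0.19 ± 0.064 SE in libraries labelled Lcn2-/- (adjusted p = 0.022) was -0.12 and not called without saline replicate 4, the highest library (adjusted p = 0.054), and the call was also lost without LPS replicate 2 or 3 and with only the compared groups in the fit. Slc25a24 and Slc25a25 were not called in any comparison, although in libraries labelled Lcn2-/- Slc25a24 was called lower after LPS without saline replicate 3 (adjusted p = 0.037) or LPS replicate 2 (adjusted p = 0.040), and Slc25a25 higher without LPS replicate 1 (adjusted p = 0.047). Slc25a25 is the member nearest to Lcn2, 26.2 kb away on chromosome 2, and stood at 7.2, 8.06, 8.21 and 7.67 RPKM in libraries labelled Lcn2-/- after LPS, against 7.75, 7.33, 7.68 and 6.91 RPKM in wild type after LPS.

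The relatives of the uncoupling proteins gave 1 call under both labels. Slc25a14 stood at 17.1, 15.9, 16.2 and 17.7 RPKM after LPS, against 18.2, 17.8, 19.3 and 18 RPKM after saline, in libraries labelled Lcn2-/-. In wild type, Slc25a14 stood at 16.1, 16.6, 16.3 and 16.2 RPKM after LPS, against 17.9, 18, 18.9 and 17.7 RPKM after saline. The groups did not overlap, with differences of -0.14 ± 0.038 SE in libraries labelled Lcn2-/- (adjusted p = 0.0085) and -0.15 ± 0.038 SE in wild type (adjusted p = 0.0077), or -0.23 in libraries labelled Lcn2-/- with GC content and length trends removed. Slc25a30, a carrier named for kidney mitochondria, stood at 0.939, 1.04, 1.11 and 1.21 RPKM after LPS, against 1.13, 1, 1.03 and 1.82 RPKM after saline, in libraries labelled Lcn2-/-. In wild type, Slc25a30 stood at 1.34, 1.5, 1.45 and 1.41 RPKM after LPS, against 1.1, 1.07, 1.12 and 1.09 RPKM after saline. In wild type the LPS libraries were all higher than the saline libraries, but the difference of 0.38 ± 0.15 SE was not called (adjusted p = 0.076); without saline replicate 4 labelled Lcn2-/-, whose spread enters the shared estimate, the adjusted p was 0.0018. In libraries labelled Lcn2-/- the difference was -0.17 ± 0.15 SE (adjusted p = 0.35), and 0.025 without that library. Slc25a27 was not called, with differences of 0.044 ± 0.052 SE in libraries labelled Lcn2-/- and 0.062 ± 0.052 SE in wild type; without saline replicate 4 it was called higher in libraries labelled Lcn2-/- (0.11, adjusted p = 0.023), as it was with array weights (0.099, adjusted p = 0.022). Among family members with other symbols, Ucp2, which carries dicarboxylates and is prominent in microglia and immune cells, stood at 12.9, 12.3, 11.9 and 14.5 RPKM after LPS, against 4.21, 5.13, 4.14 and 3.53 RPKM after saline, in libraries labelled Lcn2-/-. In wild type, Ucp2 stood at 13.6, 14.8, 13.7 and 13.9 RPKM after LPS, against 3.8, 3.99, 4.25 and 4.43 RPKM after saline. Every LPS library was above every saline library, with differences of 1.61 ± 0.091 SE in libraries labelled Lcn2-/- (adjusted p = 1.0e-09) and 1.77 ± 0.091 SE in wild type (adjusted p = 6.6e-10). Ucp3, low in level, was also higher, by 0.59 ± 0.18 SE in libraries labelled Lcn2-/- (adjusted p = 0.014) and 0.64 ± 0.18 SE in wild type (adjusted p = 0.016). In libraries labelled Lcn2-/- it stood at 1.26, 1.48, 1.33 and 1.26 RPKM after LPS, against 0.719, 0.836, 0.739 and 1.35 RPKM after saline. The groups thus overlapped through saline replicate 4, and a value without that library is not given. Mtch1 and Mtch2 were not called, and Ucp1 did not pass the filter.

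Carriers of amino acids and carnitine moved in both directions. Slc25a15, which exchanges ornithine and citrulline for the urea cycle, stood at 3.36, 3.53, 3.13 and 3.56 RPKM after LPS, against 3.87, 3.86, 4.04 and 3.89 RPKM after saline, in libraries labelled Lcn2-/-. In wild type, Slc25a15 stood at 3.75, 3.55, 3.69 and 3.57 RPKM after LPS, against 3.96, 4.32, 4.08 and 4.07 RPKM after saline. All LPS libraries were lower, with differences of -0.21 ± 0.048 SE in libraries labelled Lcn2-/- (adjusted p = 0.0023) and -0.17 ± 0.048 SE in wild type (adjusted p = 0.013), and the wild type call was lost without wild type saline replicate 2. Slc25a44, a carrier of branched-chain amino acids, stood at 14, 14.2, 14.1 and 15 RPKM after LPS, against 15.7, 15, 14.8 and 19.96 RPKM after saline, in libraries labelled Lcn2-/-. In wild type, Slc25a44 stood at 15.9, 15.9, 15.2 and 15.9 RPKM after LPS, against 15.7, 14.7, 14 and 14.7 RPKM after saline. The groups overlapped and the single call, -0.18 ± 0.071 SE in libraries labelled Lcn2-/- (adjusted p = 0.044), rested on saline replicate 4, the highest library: without it the difference was -0.085 (adjusted p = 0.076), and leaving out 9 of the other 15 libraries also ended it, as did array weights, a variance with no trend and a fit of the compared groups alone. Slc25a20, the carnitine/acylcarnitine carrier of fatty acid oxidation, and Slc25a38, the glycine carrier that feeds heme synthesis, were not called, with differences of -0.064 ± 0.066 SE and -0.0091 ± 0.056 SE in libraries labelled Lcn2-/- and -0.12 ± 0.066 SE and 0.11 ± 0.056 SE in wild type.

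Slc25a29 and Slc25a47, the head-to-head pair whose starts flank the stretch in capitals, moved alike in libraries labelled Lcn2-/-. Slc25a29 carries arginine, lysine and other basic amino acids (chr12:108825873-108835883, minus strand). It stood at 7.23, 7.51, 7.14 and 6.71 RPKM after LPS, against 6.05, 6.21, 6.58 and 3.56 RPKM after saline, in libraries labelled Lcn2-/-. In wild type, Slc25a29 stood at 6.22, 6.14, 5.62 and 5.58 RPKM after LPS, against 6.06, 5.79, 6.76 and 6.09 RPKM after saline. Slc25a47, a carrier known mainly from liver (chr12:108836046-108856815, plus strand), stood at 2.34, 2.28, 2.52 and 2.18 RPKM after LPS, against 1.57, 1.42, 1.74 and 0.572 RPKM after saline, in libraries labelled Lcn2-/-. In wild type, Slc25a47 stood at 2.05, 2.06, 1.68 and 1.89 RPKM after LPS, against 1.55, 1.7, 1.46 and 1.54 RPKM after saline. For both genes the LPS libraries labelled Lcn2-/- lay above all saline libraries of that label, and saline replicate 4 was far below every other library. Slc25a29 differed by 0.39 ± 0.14 SE in libraries labelled Lcn2-/- (adjusted p = 0.030) and by 0.19 without saline replicate 4 (adjusted p = 0.015), and this call was lost without LPS replicate 1, 2 or 3 and with only the compared groups in the fit. Slc25a47 differed by 0.93 ± 0.24 SE (adjusted p = 0.0052) and by 0.57 without that library (adjusted p = 8.2e-05). In wild type the differences were -0.068 ± 0.14 SE and 0.29 ± 0.24 SE, neither called; Slc25a47 was called there without saline replicate 4 labelled Lcn2-/- (adjusted p = 0.011). A 5 bp exon overlap with Mir345 lies on the strand of Slc25a47.

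Of 6 cofactor carriers described here, all tested, 1 was higher and 1 was lower in libraries labelled Lcn2-/-, while 3 were higher and 0 lower in wild type. Slc25a42, which brings coenzyme A into mitochondria (chr8:70184340-70212305, minus strand), stood at 2.74, 2.4, 2.67 and 2.53 RPKM after LPS, against 3.5, 3.43, 3.65 and 4.32 RPKM after saline, in libraries labelled Lcn2-/-. In wild type, Slc25a42 stood at 3.11, 2.9, 3.3 and 2.84 RPKM after LPS, against 3.36, 3.57, 3.36 and 3.58 RPKM after saline. The LPS libraries were lower than the saline libraries under both labels. The difference was -0.52 ± 0.073 SE in libraries labelled Lcn2-/- (adjusted p = 3.0e-05) and an uncalled -0.19 ± 0.073 SE in wild type (adjusted p = 0.067, or 0.014 without saline replicate 4 labelled Lcn2-/-).

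Slc25a17, which carries coenzyme A, FAD and NAD across the peroxisomal membrane (chr15:81318911-81360812, minus strand), was called in wild type. In libraries labelled Lcn2-/- it stood at 16, 15.2, 15.3 and 15.9 RPKM after LPS, against 16.2, 16.1, 16.5 and 16.5 RPKM after saline, an uncalled difference of -0.066 ± 0.028 SE (adjusted p = 0.066), called lower with GC content and length trends removed (-0.16, adjusted p = 1.5e-04), with array weights (adjusted p = 0.036) and without LPS replicate 1 (adjusted p = 0.048). In wild type it rose, with 18, 17.8, 18.3 and 17.6 RPKM after LPS, against 16.4, 16.7, 16.1 and 15.8 RPKM after saline, a difference of 0.14 ± 0.028 SE (adjusted p = 0.0014). Every LPS library was below the saline libraries in libraries labelled Lcn2-/- and above them in wild type. Slc25a16, linked to mitochondrial coenzyme A, stood at 5.33, 6.21, 5.51 and 5.83 RPKM after LPS, against 5.37, 5, 4.98 and 5.66 RPKM after saline, in libraries labelled Lcn2-/-. In wild type, Slc25a16 stood at 6.01, 6.44, 6.23 and 6.34 RPKM after LPS, against 5.56, 5.23, 4.93 and 5.11 RPKM after saline. The groups overlapped in libraries labelled Lcn2-/-, where the difference was 0.12 ± 0.057 SE (adjusted p = 0.085, or 0.026 without saline replicate 4), and did not in wild type, where it was 0.27 ± 0.057 SE (adjusted p = 0.0023).

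Slc25a26 imports S-adenosylmethionine, the methyl donor. It stood at 6.08, 5.75, 5.68 and 5.97 RPKM after LPS, against 5.76, 5.63, 5.63 and 5.6 RPKM after saline, in libraries labelled Lcn2-/-. In wild type, Slc25a26 stood at 6.43, 6.59, 6.69 and 5.8 RPKM after LPS, against 5.89, 6, 5.39 and 5.75 RPKM after saline. The groups overlapped under both labels, and its wild type call, 0.15 ± 0.048 SE (adjusted p = 0.035), was lost without wild type saline replicate 3 or 4 or wild type LPS replicate 1, 2 or 3, with GC content and length trends removed (0.097, adjusted p = 0.19) and with only the compared groups in the fit. Slc25a51, the NAD carrier, stood at 14.6, 14.9, 14.8 and 14.4 RPKM after LPS, against 13.7, 14.1, 13.5 and 13.4 RPKM after saline, in libraries labelled Lcn2-/-. In wild type, Slc25a51 stood at 14.3, 14.4, 15.3 and 14.8 RPKM after LPS, against 14.5, 13.6, 13.9 and 14.2 RPKM after saline. The groups did not overlap in libraries labelled Lcn2-/-, where Slc25a51 differed by 0.10 ± 0.032 SE (adjusted p = 0.013). The wild type difference of 0.068 ± 0.032 SE was not called. An exon of Slc25a51 overlaps one of Gm25692 on the same strand by 125 bp, so part of the value could be reads of that gene. Slc25a32, the folate and FAD carrier, was not called; its difference of 0.075 ± 0.086 SE in libraries labelled Lcn2-/- was -0.023 without saline replicate 4.

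Both pyrimidine nucleotide carriers were tested. Slc25a33 stood at 18.9, 20.3, 19.8 and 20.9 RPKM after LPS, against 17.2, 16.7, 16.5 and 17.2 RPKM after saline, in libraries labelled Lcn2-/-. In wild type, Slc25a33 stood at 20.4, 21.7, 22.3 and 19.8 RPKM after LPS, against 16.3, 18.2, 17.6 and 19.1 RPKM after saline. All LPS libraries were higher than the saline libraries of their label, by 0.24 ± 0.049 SE in libraries labelled Lcn2-/- (adjusted p = 9.1e-04) and 0.24 ± 0.049 SE in wild type (adjusted p = 0.0016); with GC content and length trends removed the value in libraries labelled Lcn2-/- was 0.14 (adjusted p = 0.036). An antisense gene, Gm13068, overlaps its exons by 281 bp. Slc25a36 stood at 7.38, 7.16, 7.15 and 7.82 RPKM after LPS, against 8.33, 8.15, 8.27 and 7.33 RPKM after saline, in libraries labelled Lcn2-/-. In wild type, Slc25a36 stood at 8.21, 8.07, 7.99 and 8.1 RPKM after LPS, against 8.11, 8.03, 8.17 and 8.46 RPKM after saline. It was called lower in libraries labelled Lcn2-/- (-0.12 ± 0.043 SE, adjusted p = 0.032) although saline replicate 4 was as low as the LPS libraries. Without that library the difference was -0.16 (adjusted p = 0.0014), while leaving out any 1 of the other 3 saline libraries or of LPS replicates 1 to 3 of that label ended the call, which was also lost with GC content and length trends removed and with only the compared groups in the fit.

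The 4 carriers of iron and glutathione gave 1 higher and 1 lower call in libraries labelled Lcn2-/-, and 2 lower calls in wild type. Slc25a37, mitoferrin-1, which supplies iron for heme and is most abundant in red cell precursors, stood at 4.96, 4.88, 4.84 and 4.91 RPKM after LPS, against 5.88, 5.65, 5.95 and 5.54 RPKM after saline, in libraries labelled Lcn2-/-. In wild type, Slc25a37 stood at 5.07, 5.31, 5.05 and 5.23 RPKM after LPS, against 5.38, 5.83, 5.52 and 5.91 RPKM after saline. Every LPS library was below the saline libraries of its label, with differences of -0.23 ± 0.040 SE in libraries labelled Lcn2-/- (adjusted p = 2.2e-04) and -0.13 ± 0.040 SE in wild type (adjusted p = 0.023); the wild type call was lost without wild type saline replicate 2 or 4 or wild type LPS replicate 1 or 3 and with GC content and length trends removed. The summed level of 7 markers of red cells and residual blood was 5.66 to 8.72 RPKM in libraries labelled Lcn2-/- after LPS, 3.81 to 5.38 RPKM in wild type after LPS, 4.39 to 7.59 RPKM in libraries labelled Lcn2-/- after saline and 5.03 to 12 RPKM in wild type after saline. Of the 4 of these markers that were tested, 0 were called in libraries labelled Lcn2-/- and 1 was lower in wild type after LPS. Of all tested genes, 48.3% and 25.3% were called in either direction. The rest of the markers, Slc4a1 and Alas2 among them, did not pass the filter. The part of these markers in the result was not tested.

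Slc25a28, mitoferrin-2, which serves the same role in other tissues, stood at 17.2, 19.5, 18.4 and 18 RPKM after LPS, against 15.7, 16, 16.1 and 13.2 RPKM after saline, in libraries labelled Lcn2-/-. In wild type, Slc25a28 stood at 17.3, 18, 15.7 and 17.9 RPKM after LPS, against 16.5, 16.9, 17.4 and 16.8 RPKM after saline. The groups did not overlap in libraries labelled Lcn2-/- and did in wild type. The difference of 0.27 ± 0.061 SE in libraries labelled Lcn2-/- (adjusted p = 0.0021) was 0.20 without saline replicate 4 (adjusted p = 0.0023), and the wild type difference was 0.022 ± 0.061 SE. Slc25a39, which imports glutathione, stood at 15.2, 16.4, 16.7 and 16.6 RPKM after LPS, against 17, 19.2, 18.3 and 13.6 RPKM after saline, in libraries labelled Lcn2-/-. In wild type, Slc25a39 stood at 15.5, 14.9, 15.9 and 15.1 RPKM after LPS, against 17.4, 17.4, 18.5 and 18.2 RPKM after saline. In libraries labelled Lcn2-/- the difference was -0.060 ± 0.077 SE and not called (adjusted p = 0.54), and -0.16 without saline replicate 4, the lowest library (adjusted p = 0.0070). In wild type the groups did not overlap and the difference was -0.22 ± 0.077 SE (adjusted p = 0.048), a call that 13 of 16 single-library omissions ended, as did centring each library on its median and a variance with no trend. Slc25a40, its close relative, was not called; its difference of 0.026 ± 0.089 SE in libraries labelled Lcn2-/- was -0.084 without saline replicate 4.

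The remaining called members have other or unassigned roles. Slc25a46, an outer membrane protein involved in mitochondrial dynamics, stood at 18, 18.7, 18.1 and 17.4 RPKM after LPS, against 17.5, 15.6, 16.3 and 15.9 RPKM after saline, in libraries labelled Lcn2-/-. In wild type, Slc25a46 stood at 17.2, 18.6, 18.7 and 18.5 RPKM after LPS, against 17.4, 17.3, 17.4 and 17.7 RPKM after saline. The groups overlapped under both labels; the difference was 0.14 ± 0.038 SE in libraries labelled Lcn2-/- (adjusted p = 0.0065) and 0.063 ± 0.038 SE in wild type, where it was not called. Slc25a35, a relative of Slc25a34, stood at 1.16, 1.29, 1.36 and 1.28 RPKM after LPS, against 1.78, 1.61, 1.66 and 1.65 RPKM after saline, in libraries labelled Lcn2-/-. In wild type, Slc25a35 stood at 1.43, 1.19, 1.44 and 1.24 RPKM after LPS, against 1.59, 1.73, 1.53 and 1.62 RPKM after saline. Its LPS libraries were all lower, with differences of -0.40 ± 0.080 SE in libraries labelled Lcn2-/- (adjusted p = 7.1e-04) and -0.29 ± 0.080 SE in wild type (adjusted p = 0.013), so Slc25a35 and Slc25a34 moved in opposite directions; the wild type call was lost without wild type LPS replicate 2. Its exons overlap those of Rangrf on the opposite strand by 545 bp.

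Slc25a45 (chr19:5877808-5885878, plus strand), near the filter in level, had the largest decrease of the family in libraries labelled Lcn2-/-. It stood at 0.538, 0.521, 0.471 and 0.492 RPKM after LPS, against 0.865, 0.902, 0.964 and 1.04 RPKM after saline, in libraries labelled Lcn2-/-. In wild type, Slc25a45 stood at 0.642, 0.653, 0.784 and 0.718 RPKM after LPS, against 0.87, 0.916, 1.09 and 0.874 RPKM after saline. The groups did not overlap under either label, and the differences were -0.90 ± 0.11 SE in libraries labelled Lcn2-/- (adjusted p = 7.5e-06) and -0.42 ± 0.11 SE in wild type (adjusted p = 0.0091). On the log2(RPKM + 0.5) scale, which shrinks the differences of low genes, they were -0.52 in libraries labelled Lcn2-/- (adjusted p = 1.1e-05) and -0.26 in wild type (adjusted p = 0.0079). Among the members without an assigned substrate that passed the filter, Slc25a53 was not called; its difference of 0.14 ± 0.074 SE in libraries labelled Lcn2-/- was 0.081 without saline replicate 4.

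Genotype label made no called difference in the family after saline. In that comparison 0 of 40 members were called by limma, 7 had an unadjusted p under 0.05 (10.9% of all tested genes did), and 0.0461% of all genes were called in either direction. The largest positive difference was that of Slc25a34, whose libraries labelled Lcn2-/- (3.39, 3.07, 2.93 and 2.78 RPKM) all lay above the wild type libraries (2.62, 2.59, 2.45 and 2.44 RPKM). Its difference of 0.27 ± 0.076 SE had an adjusted p of 0.33. The labels did not overlap after saline for 10% of the members and 5.19% of all genes. The largest negative difference was that of Slc25a47, at -0.35 (adjusted p = 0.57), which was 0.013 without saline replicate 4 labelled Lcn2-/-.

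After LPS, 5 of 40 members were lower in libraries labelled Lcn2-/- than in wild type and 0 were higher, while 8.74% of all genes were called lower and 7.04% higher. The median difference of the members was -0.058, against -0.010 over all genes. Slc25a17 had the lowest adjusted p: its LPS values labelled Lcn2-/- (16, 15.2, 15.3 and 15.9 RPKM) lay below every wild type LPS value (18, 17.8, 18.3 and 17.6 RPKM), with a difference of -0.20 ± 0.028 SE (adjusted p = 3.4e-04). Slc25a45 differed by -0.47 ± 0.11 SE (adjusted p = 0.011), with 0.538, 0.521, 0.471 and 0.492 RPKM in libraries labelled Lcn2-/- and 0.642, 0.653, 0.784 and 0.718 RPKM in wild type. Both calls held when any 1 library was left out; on the log2(RPKM + 0.5) scale that of Slc25a45 was -0.25 (adjusted p = 0.018).

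The other 3 calls were close to the threshold. Slc25a42 differed by -0.23 ± 0.073 SE (adjusted p = 0.042), Slc25a13 by -0.22 ± 0.072 SE (adjusted p = 0.047) and Slc25a36 by -0.13 ± 0.043 SE (adjusted p = 0.046). For each the libraries did not overlap between the genotypes after LPS, as was so for 30% of the members and 28% of all tested genes. Leaving out 1 library ended the call in 10 of 16 cases for Slc25a42, in 12 of 16 for Slc25a13 and in 14 of 16 for Slc25a36. Saline libraries were among those left out, since they enter the shared spread. All 3 calls were also lost with no filter, that of Slc25a13 with quantile normalization, those of Slc25a42 and Slc25a36 with GC content and length trends removed, and that of Slc25a36 with no variance trend. Without saline replicate 4 labelled Lcn2-/-, 3 members were higher and 9 lower. Those called there in addition included Slc25a29 (0.28, adjusted p = 0.0017), Slc25a47 (0.28, adjusted p = 0.017) and Slc25a3 (0.11, adjusted p = 0.0068), which were higher, and Slc25a30 (-0.41, adjusted p = 0.0018), Slc25a44 (-0.14, adjusted p = 0.0094) and Slc25a11 (-0.066, adjusted p = 0.047), which were lower. Of all tested genes, 29.8% were called in that fit.

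**Figure D3:**
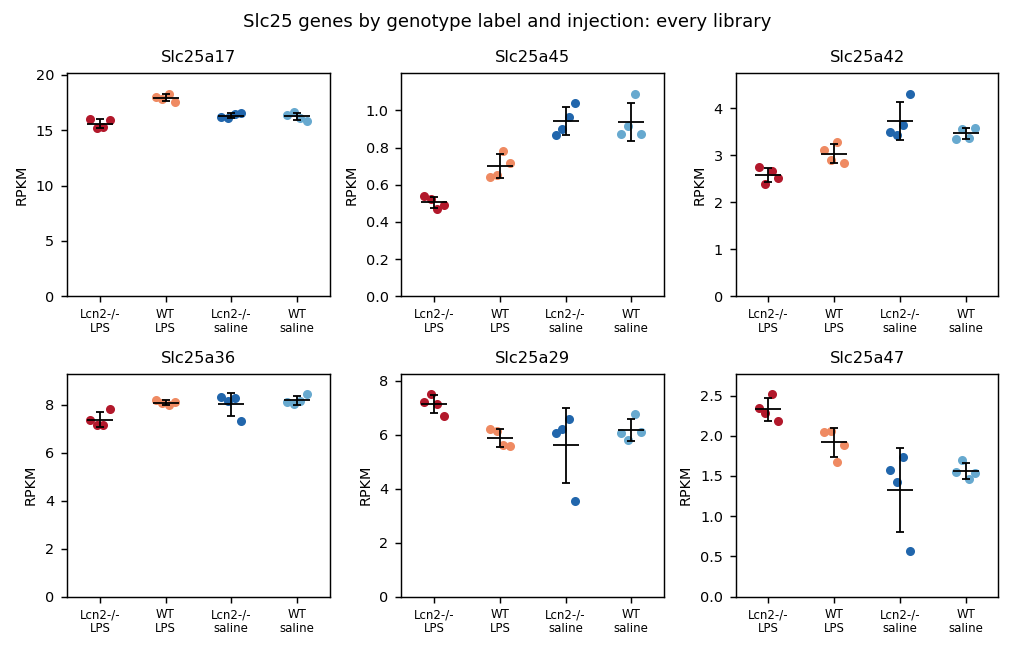
RPKM (y axis, from 0) in every library of 6 Slc25 genes that differed, or differed without 1 library, between the genotype labels after LPS; each point is 1 library, and the bar and whiskers are the group mean and SD (n = 4). Slc25a17, Slc25a45, Slc25a42 and Slc25a36 are lower in the LPS libraries labelled Lcn2-/- than in the wild type LPS libraries, and 1 saline library labelled Lcn2-/- lies far below the rest for Slc25a29 and Slc25a47.

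Slc25a17 was the 1 member whose LPS effect differed between the genotype labels by the interaction test, where 3.9% of all genes were called higher and 4.92% lower. Its LPS effect was -0.066 ± 0.028 SE in libraries labelled Lcn2-/- and 0.14 ± 0.028 SE in wild type, so the interaction was -0.21 ± 0.040 SE (adjusted p = 0.0079), and it held when any 1 library was left out. Next came Slc25a34, with -0.35 ± 0.11 SE (adjusted p = 0.054), Slc25a42, with -0.33 ± 0.10 SE (adjusted p = 0.057), and Slc25a45, with -0.48 ± 0.15 SE (adjusted p = 0.064), which were not called. Without saline replicate 4 labelled Lcn2-/-, Slc25a34 (-0.39, adjusted p = 0.026), Slc25a44 (-0.17, adjusted p = 0.038) and Slc25a29 (0.25, adjusted p = 0.047) were called as well. That fit called 13.1% of all tested genes for the interaction, against 8.82% in the main fit.

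**Figure D4:**
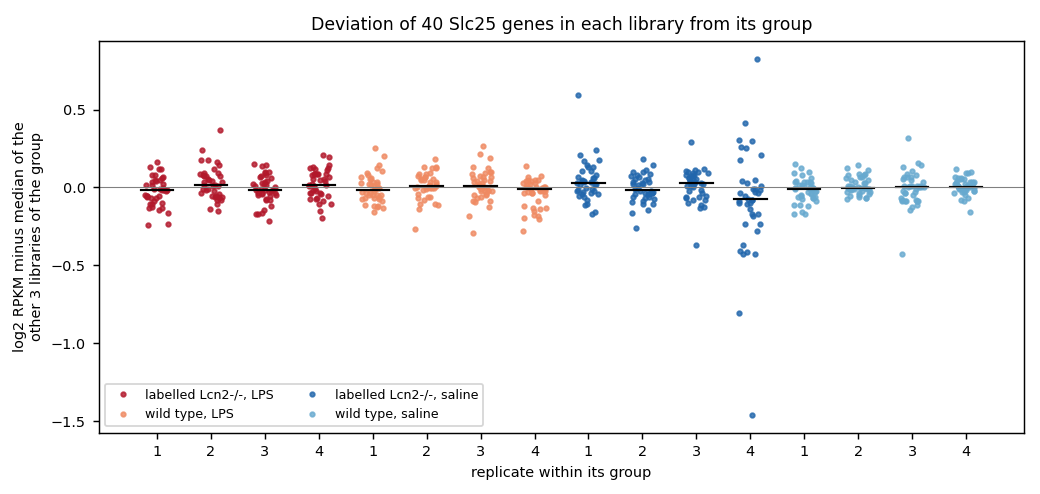
Deviation of each of the 40 tested Slc25 genes in each library (y axis, log2 RPKM minus the median of the other 3 libraries of the group) by replicate within its group (x axis); points are genes and the black line is the median over genes. Saline replicate 4 labelled Lcn2-/- has the widest spread, with a median absolute deviation of 0.17 against at most 0.074 in the others.

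Genes that work with the carriers were described from 7 further lists. Their counts stand beside the shares of all genes given above (20.7% higher and 27.7% lower in libraries labelled Lcn2-/-, and 11.4% and 13.9% in wild type). The lists were not recounted without saline replicate 4 labelled Lcn2-/-. Over all tested genes, the median absolute deviation of that library was 0.21, against 0.066 to 0.088 in the others. How far the list calls in libraries labelled Lcn2-/- rest on it was not tested. Of 15 markers of mitochondrial mass, 6 were higher and 3 lower after LPS in libraries labelled Lcn2-/-, with a median of 0.033, and 0 were called in wild type, with a median of -0.0036. Those furthest up in libraries labelled Lcn2-/- were the import subunit Timm44 (0.28 ± 0.068 SE), the matrix chaperone Hspa9 (0.26 ± 0.034 SE) and Letm1 (0.17 ± 0.037 SE). Those furthest down were the outer membrane channel Vdac3 (-0.23 ± 0.044 SE), citrate synthase Cs (-0.18 ± 0.051 SE) and the fusion protein Mfn2 (-0.078 ± 0.025 SE). The most abundant uncalled gene, Vdac1, differed by -0.044 ± 0.032 SE in libraries labelled Lcn2-/- and 0.029 ± 0.032 SE in wild type.

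Carriers enter the inner membrane through TOM and TIM22, and 12 genes of that route were tested. In libraries labelled Lcn2-/-, 1 was higher, the channel Timm22 (0.21 ± 0.051 SE), and 4 were lower, led by the small chaperones Timm10 (-0.27 ± 0.050 SE) and Timm8b (-0.24 ± 0.086 SE) and by Agk (-0.19 ± 0.062 SE). In wild type, Timm29 was higher (0.24 ± 0.076 SE) and Timm9 (-0.18 ± 0.057 SE) and Timm13 (-0.17 ± 0.058 SE) were lower. The medians were -0.040 in libraries labelled Lcn2-/- and -0.083 in wild type. Of 9 tested regulators of mitochondrial biogenesis, Nrf1 was higher (0.21 ± 0.080 SE) and Gabpa lower (-0.16 ± 0.053 SE) in libraries labelled Lcn2-/-, and 0 were called in wild type; the medians were -0.15 and 0.0071. The most abundant of them that was not called, Esrra, differed by -0.15 ± 0.068 SE in libraries labelled Lcn2-/- and -0.11 ± 0.068 SE in wild type.

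Enzymes of the shuttles and of fatty acid oxidation showed larger single changes than the genes of mitochondrial mass, import and biogenesis. No change among them was as large as that of Slc25a34 under either label. Of 6 shuttle enzymes, Gpd1 of the glycerol phosphate shuttle was higher, by 0.51 ± 0.049 SE in libraries labelled Lcn2-/- and 0.51 ± 0.049 SE in wild type. Its mitochondrial partner Gpd2 was lower, with differences of -0.25 ± 0.036 SE in libraries labelled Lcn2-/- and -0.15 ± 0.036 SE in wild type, and the malate dehydrogenase Mdh1 was not called (0.011 ± 0.024 SE and 0.016 ± 0.024 SE). Of 14 genes of the carnitine shuttle and fatty acid oxidation, 3 were higher and 5 lower in libraries labelled Lcn2-/- (median 0.051), and 4 were higher and 3 lower in wild type (median -0.070). Pdk4, a brake on pyruvate oxidation, was higher by 0.74 ± 0.091 SE in libraries labelled Lcn2-/- and by 1.30 ± 0.091 SE in wild type. Cpt2, the inner carnitine palmitoyltransferase, was higher by 0.62 ± 0.072 SE in libraries labelled Lcn2-/- and 0.63 ± 0.072 SE in wild type, and Acadl by 0.12 ± 0.044 SE and 0.26 ± 0.044 SE. The medium-chain dehydrogenase Acadm was lower (-0.35 ± 0.047 SE in libraries labelled Lcn2-/- and -0.26 ± 0.047 SE in wild type), as was the thiolase Acaa2 (-0.30 ± 0.072 SE and -0.30 ± 0.072 SE). The carnitine acetyltransferase Crat was lower in wild type (-0.18 ± 0.044 SE); the most abundant uncalled genes were Cpt1c in libraries labelled Lcn2-/- (0.036 ± 0.036 SE) and Acadvl in wild type (0.0097 ± 0.033 SE).

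Other transporters of the inner membrane and the one-carbon, heme and iron-sulphur partners moved both ways. Of 11 transporters, 3 were higher and 4 lower in libraries labelled Lcn2-/- (median -0.0022), and 0 higher and 2 lower in wild type (median -0.027). The sodium/calcium exchanger Slc8b1 was furthest down, with differences of -1.25 ± 0.13 SE in libraries labelled Lcn2-/- and -0.96 ± 0.13 SE in wild type. Also called in libraries labelled Lcn2-/- were the pyruvate carrier subunits Mpc1 (0.14 ± 0.042 SE) and Mpc2 (0.24 ± 0.090 SE), Sfxn3 (-0.23 ± 0.078 SE) and Abcb10 (-0.16 ± 0.048 SE), and in wild type Sfxn5 (-0.20 ± 0.038 SE). Of 10 one-carbon, heme and iron-sulphur partners, 2 were higher and 1 lower in libraries labelled Lcn2-/- (median 0.075), and 3 higher and 1 lower in wild type (median 0.033). Mthfd2 of mitochondrial folate metabolism was higher (0.42 ± 0.079 SE in libraries labelled Lcn2-/- and 0.48 ± 0.079 SE in wild type), as was Mat2a, which makes S-adenosylmethionine (0.28 ± 0.082 SE and 0.53 ± 0.082 SE). Ferrochelatase Fech was lower in libraries labelled Lcn2-/- (-0.23 ± 0.059 SE), and in wild type the heme synthesis enzyme Alas1 was higher (0.16 ± 0.050 SE). The most abundant uncalled genes were Sfxn1 (-0.0022 ± 0.040 SE in libraries labelled Lcn2-/-), Mpc1 in wild type (0.033 ± 0.042 SE) and Iscu (0.11 ± 0.045 SE in libraries labelled Lcn2-/- and 0.026 ± 0.045 SE in wild type).

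Markers of other cell types differed after LPS as well. The counts that follow are of calls. They stand beside 20.7% of all genes called higher and 27.7% lower in libraries labelled Lcn2-/-, and 11.4% and 13.9% in wild type. The summed level of 10 endothelial markers was 60.1 to 71.2 RPKM after LPS, against 72.5 to 85.6 RPKM after saline, in libraries labelled Lcn2-/-. In wild type that sum was 67 to 73.8 RPKM after LPS, against 86.7 to 95.7 RPKM after saline. Of these markers 2 were called higher and 6 lower in libraries labelled Lcn2-/-, and 3 higher and 5 lower in wild type. The sum of 8 neutrophil markers was 11.2 to 28.3 RPKM after LPS, against 5.14 to 7.49 RPKM after saline, in libraries labelled Lcn2-/-, and 11 to 17.5 RPKM after LPS, against 3.12 to 9.42 RPKM after saline, in wild type. That of 10 neuronal markers was 1110 to 1151 RPKM after LPS, against 1096 to 1132 RPKM after saline, in libraries labelled Lcn2-/-, and 1137 to 1155 RPKM after LPS, against 1098 to 1143 RPKM after saline, in wild type. Of 8 pericyte and smooth muscle markers 0 were higher and 6 lower in libraries labelled Lcn2-/-, and 1 higher and 5 lower in wild type. Their sum was 62.8 to 73.5 RPKM after LPS, against 84.6 to 93.1 RPKM after saline, in libraries labelled Lcn2-/-, and 67.8 to 73.4 RPKM after LPS, against 92.5 to 95.9 RPKM after saline, in wild type, so the groups did not overlap. Of 10 oligodendrocyte markers 1 was higher and 5 lower in libraries labelled Lcn2-/-, and 0 higher and 5 lower in wild type. Their sum was 872 to 938 RPKM after LPS, against 889.6 to 937 RPKM after saline, in libraries labelled Lcn2-/-, and 874 to 943 RPKM after LPS, against 926 to 1019 RPKM after saline, in wild type. Of 10 microglial markers 3 were higher and 6 lower in libraries labelled Lcn2-/-, and 3 higher and 5 lower in wild type. Their sum was 159 to 171 RPKM after LPS, against 147 to 149 RPKM after saline, in libraries labelled Lcn2-/-, and 147 to 162 RPKM after LPS, against 144 to 154 RPKM after saline, in wild type. Of 8 choroid plexus and ependymal markers 0 were higher and 4 lower in libraries labelled Lcn2-/-, and 0 higher and 3 lower in wild type. Their sum was 469 to 480.2 RPKM after LPS, against 482 to 659.7 RPKM after saline, in libraries labelled Lcn2-/-, and 422 to 462 RPKM after LPS, against 482 to 503 RPKM after saline, in wild type. The neutrophil genes Mpo, Elane and Retnlg did not pass the filter. Of the 5 neutrophil markers tested, 3 were higher and 0 lower under each label. Of the 10 neuronal markers, 2 were higher and 1 lower in libraries labelled Lcn2-/-, and 0 were called in wild type. The part of these cells in the carrier results was not tested.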

How the data were processed

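Per the labels, RNA came from sonicated tissue (Direct-zol, DNase-treated) and went into standard Illumina libraries. The authors deposited 1 table of log2 RPKM (reads per kilobase of transcript, scaled to library size), normalized by conditional quantile normalization per the file's name, with 1 column for each of 16 samples; the values are not whole numbers although column names end in GeneCount. The submitters' processing notes give build mm10; aligner, counter, annotation and strand use are not given in those sources. With no counts, library depths are unknown and counting error has no interval here. Conditional quantile normalization aligns the libraries' distributions, so a change shared by most genes would not be seen. RPKM printed here is 2 to the power of the deposited log2 value.

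Groups came from the genotype and injection labels. Of 33289 gene IDs, 32695 (98.2%) matched GENCODE vM21 and gave symbols and positions. Tests covered genes that reached a log2 RPKM of -1 in 3 or more libraries. A group-means model over all 16 libraries was fitted in R 4.3.3 (limma 3.58.1; empirical Bayes variance following the mean), two-sided tests and Benjamini-Hochberg adjustment over 17349 genes; calls needed an adjusted p below 0.05. The fit was tested on simulated data. The labels list separate samples without naming animals, so p-values reflect only sample-to-sample spread, which may be technical. Members called in any comparison are given with the value in every library; from each other list, the 3 called genes furthest in each direction per LPS comparison and the most abundant uncalled gene are named. The values of 1 member and a few other genes are not reported here, although counts, medians and sums include them unless a smaller number is given. The members and gene lists were chosen with earlier results of these data known, and are described by counts and medians with no test of the list. Alternatives covered the scale, filter, normalization, GC content and length, the estimate of spread, and leaving out each library.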

Additional observations from a re-analysis of the deposited data

Results flagged for a closer look

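In 5 of 100 combinations of a group and a called member given here, 1 library lay further from the other 3 than Dixon's test allows at its 95% level; chance alone gives about 1 in 20. In saline libraries labelled Lcn2-/-, replicate 4 was low in Slc25a28 at 13.2 RPKM (15.7 to 16.1 RPKM in the other 3) and in Slc25a29 at 3.56 RPKM (6.05 to 6.58 RPKM in the other 3), and replicate 3 was high in Slc25a15 at 4.04 RPKM (3.86 to 3.89 RPKM in the other 3). In wild type LPS libraries, replicate 3 was low in Slc25a44 at 15.2 RPKM (all others 15.9 RPKM) and replicate 1 was low in Slc25a46 at 17.2 RPKM (18.5 to 18.7 RPKM in the other 3).

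The LPS effect on Slc25a17 differed between the genotype labels by the interaction term of limma, at -0.21 on the log2 scale (adjusted p = 0.0079): all 4 LPS libraries labelled Lcn2-/- were below the saline libraries of that label, and all 4 wild type LPS libraries were above the wild type saline libraries.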

How the results depend on the processing

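Of 43 calls of a member in a comparison, 28 held under every one of 26 alternatives that could be computed for them, 16 of which leave out 1 library, and none changed direction. No paired analysis was possible because the replicate numbers follow accession order and pair nothing. Leaving out 1 library gave 7 to 11 members higher and 10 to 13 lower after LPS in libraries labelled Lcn2-/-, and 5 to 8 higher and 6 to 11 lower in wild type. It gave 0 to 3 higher and 2 to 9 lower by genotype after LPS, and 0 to 1 higher and 1 to 3 lower for the interaction. In the same order, the share of all genes called was 42.2 to 48.8%, 20.8 to 34.7%, 8.83 to 29.8% and 4.19 to 13.1%. Genotype after saline stayed at 0 members. With no filter, 2 members were lower by genotype after LPS in place of 5, and 7.07% of all genes were called in place of 15.8%. In the interaction, in place of 1, 2 members were lower with a stricter filter (log2 RPKM of at least 0 in at least 4 libraries), 3 with GC content and length trends removed and 2 with no trend in the empirical Bayes step. Those fits called 10.6%, 8.45% and 7.68% of all genes for the interaction, against 8.82% in the main fit. With only the compared groups in the fit, 3 members were higher by genotype after LPS in place of 0. In that fit 7 members were lower in place of 5, and 25.3% of all genes were called. With array weights, 2 were higher and 10 lower by genotype after LPS, where 30.5% of all genes were called. For the interaction, 1 was higher and 7 lower with array weights, where 17.5% of all genes were called. The causes were not tested.

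With no filter, the median over all genes moved to -0.32 in libraries labelled Lcn2-/- and -0.22 in wild type after LPS, against -0.028 and -0.025 with it, and the share of higher among all called genes was 22% and 16.8%, against 42.8% and 45.1%. The members went to 9 higher and 15 lower in libraries labelled Lcn2-/- and 6 higher and 13 lower in wild type. The added calls included low genes that the filter had left out. With no filter, 53.5% of all genes were called in libraries labelled Lcn2-/- and 41.4% in wild type. Depth is unknown, so how far counting error limits the members near the filter, such as Slc25a45, cannot be given.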

Other observations

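Members that lie side by side in the genome did not all have like levels. Slc25a41 and Slc25a23 lie 2.06 kb apart on chromosome 17, yet Slc25a41 did not exceed 0.136 RPKM in any library while Slc25a23 was at 33.8 RPKM or more. Slc25a54 and Slc25a24 lie 6.46 kb apart on chromosome 3, and Slc25a43 and Slc25a5 lie 18.4 kb apart on chromosome X, again with 1 member of each pair under the filter. Exons of 14 of 47 members overlap exons of another gene in GENCODE vM21, 12 of them on the opposite strand and 2 on the same strand, so their values may hold reads of 2 genes. Beyond those given above, they include the called members Slc25a46 (383 bp), Slc25a37 (381 bp), Slc25a10 (228 bp), Slc25a26 (144 bp) and Slc25a23 (142 bp), all on the opposite strand.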
